A study of Rattus norvegicus with 4 samples.

Results

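The calcitonin and adrenomedullin family was followed in the rat uterus through 9 genes, each represented by the probe set whose platform annotation carried that gene's symbol alone. They are the peptide precursors Calca, Calcb, Adm and Adm2, the receptors Calcr and Calcrl, and the receptor activity-modifying proteins Ramp1, Ramp2 and Ramp3. All 9 listed genes had a probe set, and each had exactly 1, so 9 of the 18166 genes tested are described here. The uteri came from Sprague Dawley rats aged 10 to 12 weeks, on day 5 of pregnancy and before implantation. In the ormeloxifene group (2 arrays) the rats had been fed the drug, 1.25 mg per kg, suspended in gum acacia on their day 1 of pregnancy. In the vehicle group (2 arrays) they had been given the vehicle alone. Ormeloxifene (Orm in the labels) is an oral contraceptive that modulates the oestrogen receptor selectively by tissue and is not a steroid. Each array held RNA of a labelled biological replicate, but the sources used here do not say whether this came from a single rat or from a pool.

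Peptides of this family act through receptors with several parts. The calcitonin receptor-like receptor, encoded by Calcrl, reaches the cell surface with a RAMP: with Ramp1 it forms the receptor for calcitonin gene-related peptide (CGRP), and with Ramp2 or Ramp3 it forms receptors for adrenomedullin. The calcitonin receptor, encoded by Calcr, binds calcitonin by itself and forms amylin receptors with RAMPs. These receptors signal mainly through the stimulatory G protein and cyclic AMP. In the rat uterus calcitonin is known as a progesterone-induced product of the glandular epithelium that appears transiently before implantation. CGRP and adrenomedullin relax vascular and uterine smooth muscle, and in mice a reduced maternal supply of adrenomedullin impairs implantation.

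Values are log2 signals after quantile normalization of the deposited log2 values, and each difference is ormeloxifene minus vehicle, followed by its standard error (SE) from limma. Precision is limited throughout by the number of arrays. A probe set's signal depends on its probes as well as on its transcript, so signals of different genes were not compared. Where a signal is called dim or bright, this refers to the percentile of its mean over all 18166 genes. The arrays resembled each other more by replicate number than by treatment: across genes the arrays numbered 1 correlated at r = 0.980 and those numbered 2 at r = 0.983, whereas the correlation was 0.973 between ormeloxifene arrays and 0.963 between vehicle arrays. Arrays that differed in both number and treatment correlated at 0.968 (ormeloxifene 1 with vehicle 2) and 0.964 (ormeloxifene 2 with vehicle 1). The vehicle arrays were thus no more alike than these. All of these correlations are across genes, which are not independent replicates. Exactly equal deposited values occurred 488 times between the arrays numbered 1 and 551 times between those numbered 2, and 0 times in every other pair. The labels name no batch. Differences within each number are therefore given beside the pooled values. Of the 8 genes taken as markers of uterine tissue, 7 were measured, 2 higher and 5 lower with ormeloxifene at a median difference of -0.20 (-0.25 to -0.036 with single arrays left out). The oestrogen receptor Esr1 lay at the 97th percentile, the progesterone receptor Pgr at the 95.4th and the smooth muscle myosin Myh11 at the 99.2th, and the glandular transcription factor Foxa2 was the dimmest at the 36.8th.

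With ormeloxifene, 6 of the 9 genes lay higher and 3 lay lower (53.4% and 46.6% of all genes), and none passed the threshold of an adjusted p under 0.05 over all genes. The precursor gene Calca was 1.41-fold lower, while Adm was 1.42-fold and Ramp1 was 1.34-fold higher. The median difference of the 9 genes was 0.22, against 0.02 over all genes. By limma, 0 of the 9 were called, and over all genes 0 of 18166 were called, a share of 0%. At an unadjusted p under 0.05 stood 1 of the 9, Calca, which was lower, against 2.20% of all genes in either direction and 1.08% on the lower side. The 2 groups did not overlap in 6 of the 9, where that held for 25.7% of all genes. Of these, 4 were higher (13.9% of all genes) and 2 were lower (11.8%). This count depended on the scaling: on the values as deposited it was 2 of 9 (17.2% of all genes), and with arrays centred on their medians it was 4 of 9 (21.8% of all genes). Calca and Calcr were the 2 genes whose groups were apart in all of these scalings. The share of all genes apart in every scaling was not counted and is at most 17.2%, so these 2 are named as a description only. The direction of each of the 9 differences was the same in all of these scalings.

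**Figure D1:**
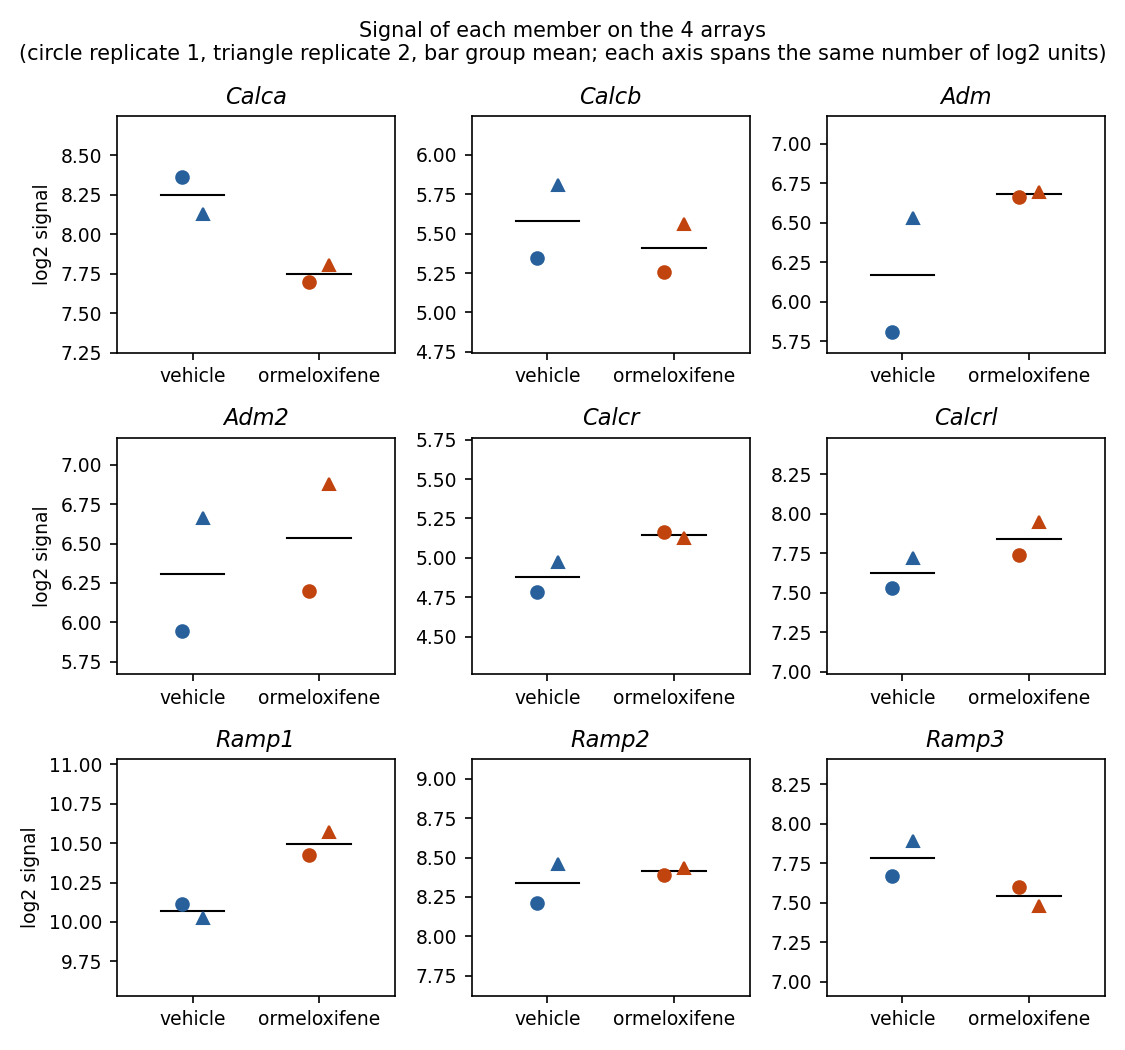
Log2 signal of the 9 genes on each array, vehicle in blue and ormeloxifene in orange, with circles for replicate 1, triangles for replicate 2 and a bar at the group mean. Calca lies lower and Ramp1 higher on both ormeloxifene arrays, while the vehicle arrays of Adm stand 0.72 apart and both groups of Adm2 are split by replicate number.

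Among the peptide precursors, Calca encodes both calcitonin and alpha-CGRP, made from the same gene by alternative splicing. Its probe set (17636421) cannot tell these transcripts apart here, because the exons it covers are not given in the sources used. The signal of Calca was 8.36 and 8.13 on vehicle replicates 1 and 2, and 7.69 and 7.80 on ormeloxifene replicates 1 and 2. Both ormeloxifene arrays were thus lower than both vehicle arrays, and the nearest pair, vehicle replicate 2 and ormeloxifene replicate 2, carried the same number. The group means were 8.25 ± 0.17 (SD, n = 2) with vehicle and 7.75 ± 0.08 (SD, n = 2) with ormeloxifene, a difference of -0.50 ± 0.21 (SE) with a 95% interval from -0.99 to -0.0035. The unadjusted p by limma was 0.0488, and the adjusted p was 1.00. An absolute difference at least as large was seen in 3.72% of all genes. Within number 1 the difference was -0.67 and within number 2 it was -0.33. The unadjusted p missed 0.05 on the values as deposited (0.146) and with arrays centred on their medians (0.0725), although the difference stayed at -0.49 and -0.51. With the replicate number as a block, the p of Calca by limma was 0.0214 (adjusted p = 0.657), where 6.76% of all genes fell under 0.05. The block on the values as deposited gave 0.0212 (adjusted p = 0.57). In bulk tissue, fewer cells of a type and less RNA per cell cannot be told apart.

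The stretch of 250 bases before the annotated start of Calca is shown because Calca is the gene with the smallest p of the 9 and is known as a target of steroid and cyclic AMP signalling. That of Ramp1, the receptor partner with the smallest p, is shown beside it. Sequences are from RefSeq on the GRCr8 assembly, written 5′ to 3′ on the gene's own strand, and 7 of the 9 genes had an entry. Capitals mark matches to 3 short motifs, searched on both strands: TGACG from the cyclic AMP response element (CGTCA on the opposite strand), GGTCA from the oestrogen response element (TGACC on the opposite strand), and AGAACA from the progesterone response element (TGTTCT on the opposite strand). The motifs were chosen after the sequences had been seen.
Calca: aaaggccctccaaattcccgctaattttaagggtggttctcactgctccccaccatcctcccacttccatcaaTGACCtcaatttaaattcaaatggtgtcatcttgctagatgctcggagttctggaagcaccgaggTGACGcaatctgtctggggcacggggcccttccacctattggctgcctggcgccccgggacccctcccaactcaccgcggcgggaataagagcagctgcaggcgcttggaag
Ramp1: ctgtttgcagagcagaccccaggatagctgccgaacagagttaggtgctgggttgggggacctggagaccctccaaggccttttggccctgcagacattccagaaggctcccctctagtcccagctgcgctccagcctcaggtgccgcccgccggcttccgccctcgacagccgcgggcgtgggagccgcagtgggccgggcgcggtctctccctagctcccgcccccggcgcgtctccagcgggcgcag
The Calca window lies at chr1:178317530-178317779 on the minus strand and the Ramp1 window at chr9:99212866-99213115 on the plus strand. Calca held 1 match to TGACG, starting at position -112 from the start, and 1 to TGACC, starting at -177, which did not overlap. Ramp1 held 0 matches. Over all 33469 windows of this length, TGACG was found in 18.2%, GGTCA in 35.4% and AGAACA in 17.5%, on either strand. Among the other 5 windows, Calcr held 2 matches to TGACG, Adm2 held 2 matches to GGTCA, Ramp3 held 1 match to GGTCA, and Adm held 0. Calcrl held 1 match to GGTCA and 1 to AGAACA. A match describes letters and not a bound site.

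Calcb, which encodes beta-CGRP, had a signal of 5.35 and 5.81 on the vehicle arrays and 5.26 and 5.56 on the ormeloxifene arrays. The groups overlapped, and each replicate 2 lay above its replicate 1. The difference was -0.17 ± 0.25 (SE), with a 95% interval from -0.74 to 0.41. This was a rather dim probe set, at the 30.4th percentile. Within number 1 its difference was -0.09 and within number 2 it was -0.25. Without vehicle replicate 2 the difference was 0.06, of the opposite sign. That fit leaves the replicate numbers unbalanced, so the gap between replicates enters this value.

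Adm encodes adrenomedullin, a vasodilator peptide. Its signal was 5.81 and 6.53 on the vehicle arrays and 6.66 and 6.70 on the ormeloxifene arrays. The ormeloxifene arrays agreed to within 0.04 and lay above both vehicle arrays, but the vehicle arrays differed from each other by 0.72, more than the groups did. The difference was 0.51 ± 0.27 (SE), with a 95% interval from -0.13 to 1.15 and an unadjusted p of 0.102 by limma. It was 0.85 within number 1 and 0.17 within number 2. Vehicle replicate 1 set most of it: without that array the difference was 0.15, and without vehicle replicate 2 it was 0.87. On the values as deposited the groups of Adm overlapped.

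Adm2 encodes intermedin, a related peptide that acts on the same receptors. Its signal was 5.94 and 6.66 on the vehicle arrays and 6.20 and 6.88 on the ormeloxifene arrays. Replicates of a group lay 0.72 and 0.67 apart, about 3 times the group difference of 0.23 ± 0.32 (SE), and the 95% interval ran from -0.52 to 0.99. Within the numbers the differences were 0.26 and 0.21. When ormeloxifene replicate 2 or vehicle replicate 1 was left out, the value turned to -0.10 and -0.13. Leaving out 1 array unbalances the replicate numbers, so the gap between replicates then enters the difference. Those values therefore do not test the differences within the numbers.

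**Figure D2:**
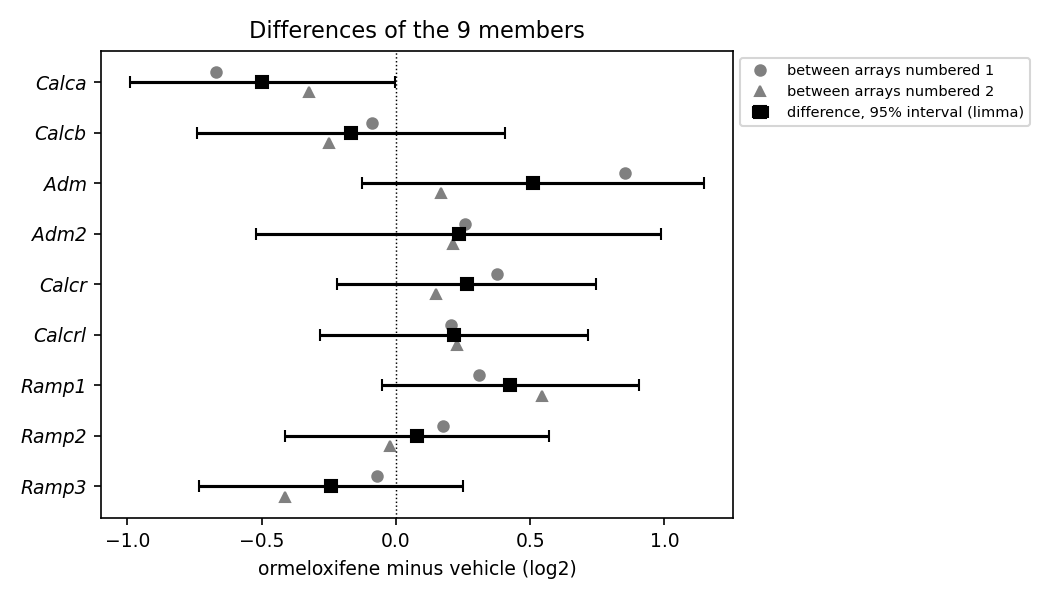
Differences of the 9 genes, ormeloxifene minus vehicle on the log2 scale, as squares with 95% intervals from limma, and between arrays of the same number as grey circles (number 1) and triangles (number 2). The interval of Calca, from -0.99 to -0.0035, is the one that ends below 0, and the other 8 span 0.

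Of the receptors, Calcr encodes the calcitonin receptor. Its signal was 4.79 and 4.98 on the vehicle arrays and 5.16 and 5.12 on the ormeloxifene arrays. Both ormeloxifene arrays were the higher, at a difference of 0.26 ± 0.21 (SE) with a 95% interval from -0.22 to 0.75 and an unadjusted p of 0.241. Calcr was the dimmest of the 9 probe sets relative to all genes, at the 19.8th percentile, and the only one of them in the lowest 25% of signal. Within number 1 and number 2 the difference was 0.38 and 0.15.

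Calcrl encodes the calcitonin receptor-like receptor, the shared core of the CGRP and adrenomedullin receptors. The signal was 7.53 and 7.72 on the vehicle arrays and 7.74 and 7.95 on the ormeloxifene arrays. The groups were apart only narrowly, at 7.72 on vehicle replicate 2 and 7.74 on ormeloxifene replicate 1, and they overlapped on the values as deposited. The difference was 0.22 ± 0.21 (SE), with a 95% interval from -0.28 to 0.71. It was 0.20 within number 1 and 0.23 within number 2.

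Ramp1, the partner that gives Calcrl its specificity for CGRP, was the brightest of the 9 probe sets relative to all genes, at the 98.7th percentile. Its signal was 10.12 and 10.02 on the vehicle arrays and 10.42 and 10.57 on the ormeloxifene arrays. Both ormeloxifene arrays were higher, and replicates of a group lay closer together (0.09 and 0.15) than the groups. The difference was 0.43 ± 0.21 (SE) with a 95% interval from -0.05 to 0.91, an unadjusted p of 0.0743 by limma and an adjusted p of 1.00. A difference of at least this size was seen in 6.18% of all genes. It was 0.31 within number 1 and 0.54 within number 2, and leaving out an array moved it between 0.35 and 0.50. On the values as deposited the groups of Ramp1 overlapped and the difference was 0.38. There the ormeloxifene replicates, at 10.12 and 10.82, lay farther apart than the groups did, and the vehicle replicates were at 9.91 and 10.27.

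Ramp2, the partner in the main adrenomedullin receptor of vessels, had a signal of 8.21 and 8.46 on the vehicle arrays and 8.39 and 8.44 on the ormeloxifene arrays. The ormeloxifene values lay between the vehicle values. At 0.08 ± 0.21 (SE) its difference was the smallest in size of the 9, with a 95% interval from -0.41 to 0.57. Within the numbers it was 0.18 and -0.02, and it was -0.04 without vehicle replicate 1.

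Ramp3, the partner in the other adrenomedullin receptor, had a signal of 7.67 and 7.89 on the vehicle arrays and 7.60 and 7.48 on the ormeloxifene arrays. It was the only one of the receptor genes and RAMPs that was lower with ormeloxifene, at -0.24 ± 0.21 (SE) with a 95% interval from -0.73 to 0.25. The difference was -0.07 within number 1 and -0.41 within number 2. On the values as deposited its groups overlapped.

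**Figure D3:**
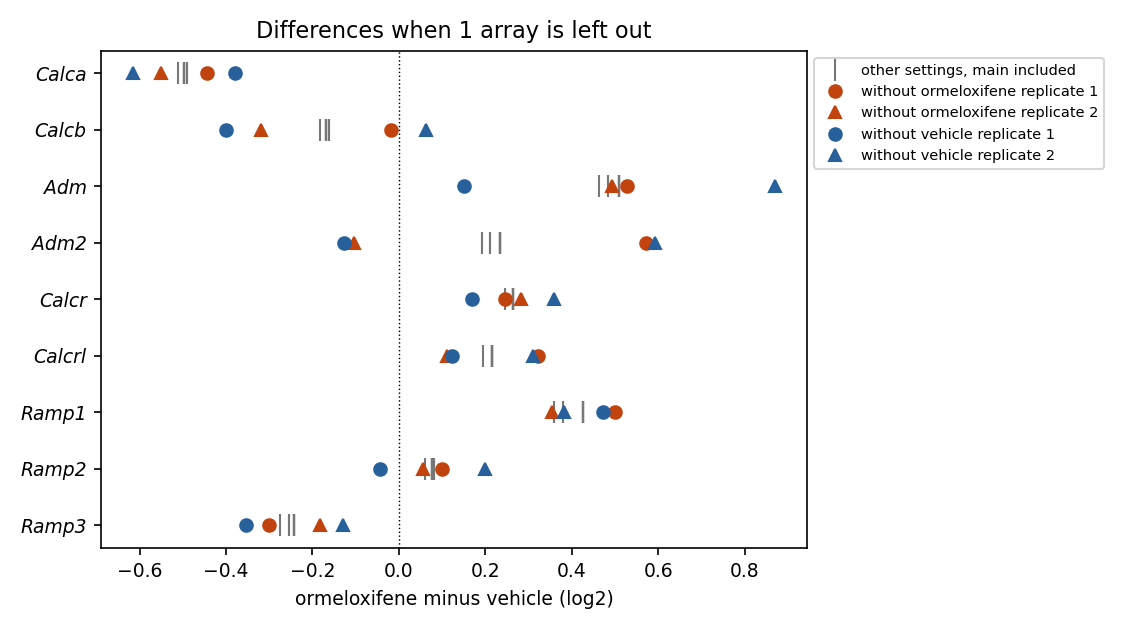
Differences of the 9 genes, ormeloxifene minus vehicle on the log2 scale, when ormeloxifene arrays (orange) or vehicle arrays (blue) are left out in turn, circles for replicate 1 and triangles for replicate 2, with the other settings as grey ticks. Adm spreads from 0.15 to 0.87 with the vehicle array left out, Adm2, Calcb and Ramp2 cross 0, and Calca stays between -0.61 and -0.38. Each such fit has unbalanced replicate numbers, so the gap between replicates enters its difference.

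Ratios within an array compare the receptor parts with each other, and centring the arrays leaves them as they are. The log2 ratio of Ramp1 to Ramp3, set against its mean on the vehicle arrays, was 0.54 and 0.80 on ormeloxifene replicates 1 and 2 and 0.16 and -0.16 on vehicle replicates 1 and 2. Both ormeloxifene arrays were thus higher, at a difference of 0.67, and of 0.63 on the values as deposited. Relative to Ramp3, Calcrl was higher by 0.46 and Ramp2 by 0.32 with ormeloxifene. Relative to Ramp2, Ramp1 was higher by 0.35 and Calcrl by 0.14, and relative to Ramp1, Calcrl was lower, at -0.21. A 2-sided exact permutation test over the 4 arrays gave p = 0.333 for each of the 6 ratios after quantile normalization, the smallest value this design allows, and 0.333 after Benjamini-Hochberg adjustment over the 6. On the values as deposited the groups overlapped for Ramp1 to Ramp2 and for Calcrl to Ramp1, with an exact permutation p of 0.667 for each. The ratios share genes and are not independent of each other. These ratios describe unequal differences and do not say which of the genes in a pair differed. Since no lower exact p can occur with this many arrays, the test cannot decide whether a ratio differed. Ramp1 and Ramp3 had the highest and the lowest difference of the genes paired here, so their ratio differed most by construction. How often the groups are apart for other gene pairs was not counted.

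**Figure D4:**
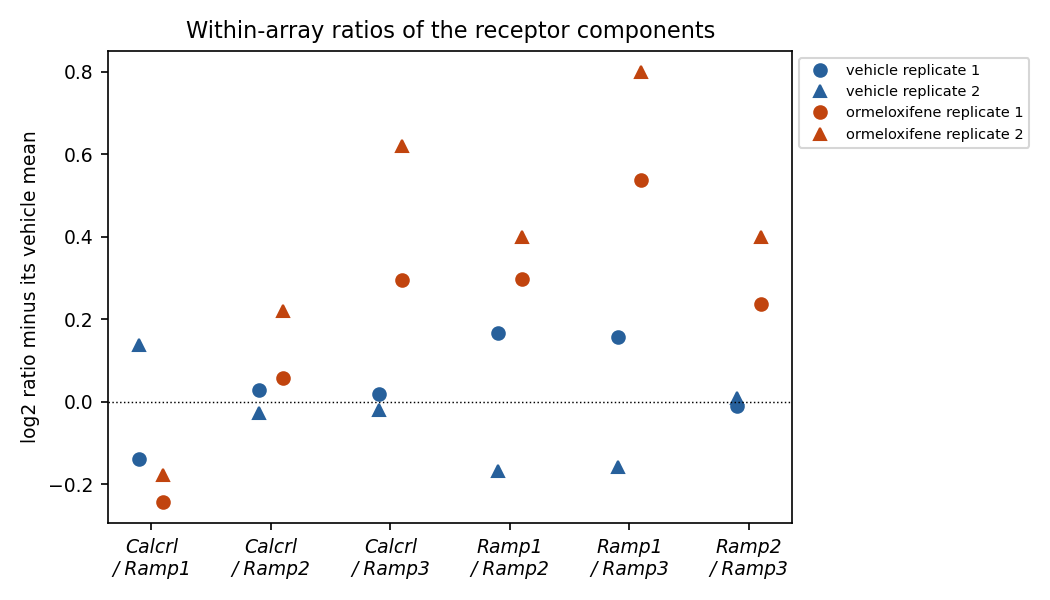
Within-array log2 ratios of the receptor parts, each minus its mean over the 2 vehicle arrays, for vehicle (blue) and ormeloxifene (orange), circles for replicate 1 and triangles for replicate 2. The ratio of Ramp1 to Ramp3 stands highest with ormeloxifene, at 0.54 and 0.80, against 0.16 and -0.16 with vehicle.

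The cells that carry these genes were followed by marker lists, described by counts and medians beside the median of 0.02 over all genes. Of the epithelial markers, relevant to Calca, 4 were higher and 6 lower of 10, at a median of -0.11. The epithelium-specific factor Elf3, the one of the 10 with the smallest p, differed by -0.48 ± 0.21 (unadjusted p = 0.0492 by limma, adjusted p = 1.00). The 4 higher ones were Cdh1 at 0.24 ± 0.30, Krt19 at 0.19 ± 0.23, Cldn4 at 0.10 ± 0.24 and Cldn3 at 0.10 ± 0.27. The linear signals of the 10 summed to 2310 and 2790 on the vehicle arrays and to 2530 and 2590 on the ormeloxifene arrays, which lie between them. In each list such a sum mostly follows the brightest probe sets and does not weigh the markers equally. Cldn3, the brightest of the 10, was 9.51 and 10.21 on the vehicle arrays and 10.03 and 9.88 on the ormeloxifene arrays. Nerve and glia markers, relevant to CGRP, were higher in 2 and lower in 6 of 8 at a median of -0.12, and summed to 452 to 468 with vehicle and 396 to 447 with ormeloxifene. All 7 smooth muscle markers measured were higher, at a median of 0.22, with summed signals of 10000 to 11100 with vehicle and 12100 to 13300 with ormeloxifene. Pericyte markers were higher in 5 of 6 at a median of 0.16, and summed to 1910 to 1960 with vehicle and 2200 to 2590 with ormeloxifene. Blood endothelial markers, relevant to Calcrl and Ramp2, were higher in 7 and lower in 2 of 9 at a median of 0.16, and summed to 1680 to 1820 with vehicle and 1910 to 2010 with ormeloxifene. The 4 lymphatic markers had a median of 0.02, which ran from -0.15 to 0.13 with single arrays left out. When arrays were left out in turn, all 7 smooth muscle markers were higher each time, at medians from 0.13 to 0.36, and the blood endothelial median ran from 0.04 to 0.21. By contrast, the pericyte median was -0.026 without ormeloxifene replicate 1, and without ormeloxifene replicate 2 the epithelial median was 0.026 and the nerve and glia median 0.015. The part of these cell types in the differences of Ramp1, Calcrl and Calca was not tested. No marker is listed at 0, since the table holds log2 signals, and all of the epithelial, smooth muscle, pericyte and blood endothelial markers measured lay above the lowest 25% of signal. Within that lowest 25% lay 3 of the 8 nerve and glia markers and 1 of the 4 lymphatic markers.

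Markers of other tissue that a uterine sample could hold were measured in part. Stroma had a median of 0.07 over 7 genes, leukocytes 0.14 over 6, fat 0.23 over 4, oviduct and ovary 0.14 over 5, and the embryo 0.03 over 4. Leaving out single arrays moved most of these: the stroma median ran from -0.055 to 0.13, fat from 0.054 to 0.36, oviduct and ovary from -0.016 to 0.12, the embryo from -0.021 to 0.073 and leukocytes from 0.096 to 0.20. The stroma median was 0.0059 on the values as deposited and -0.015 with arrays centred on their medians. Of the 4 blood markers only 1, the haemoglobin gene Hba-a1, was measured, at -0.73 ± 0.21 (unadjusted p = 0.00951 by limma, adjusted p = 1.00). Its probe set was dim, at the 28.1th percentile, and whether it follows the blood content of the samples was not tested. Of the 76 marker genes measured, 2 had an unadjusted p under 0.05, Elf3 and Hba-a1, a share of 2.63% near the 2.20% of all genes.

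Around the family, genes that make, clear, transduce or accompany the peptides were read from 8 lists. By limma, 0 of their 90 measured genes passed the adjusted threshold. At an unadjusted p under 0.05 stood 2, Crem and Mme, a share of 2.22% beside 2.20% of all genes, which is the background level. Crem belongs to the Gs and cyclic AMP list and encodes a transcription factor whose inducible forms are switched on by cyclic AMP and repress its targets. Its signal was 7.62 and 7.79 on the vehicle arrays and 6.76 and 7.06 on the ormeloxifene arrays. Both ormeloxifene arrays were lower, at a difference of -0.80 ± 0.22 (SE), or 1.74-fold, with an unadjusted p of 0.00741 and an adjusted p of 1.00. A difference of at least this size was seen in 0.595% of all genes. Over the whole list, 15 of the 25 genes measured were higher and 10 lower, at a median of 0.07, with the potassium channel subunit Kcnj11 at 0.44 ± 0.31 and the stimulatory G protein gene Gnas at 0.24 ± 0.21. Both were dim here, Kcnj11 at the 20.8th percentile and Gnas at the 36.5th.

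Mme encodes neprilysin, a membrane peptidase that cleaves many small peptides, CGRP and adrenomedullin among them. Its signal was 8.33 and 8.52 on the vehicle arrays and 8.96 and 9.07 on the ormeloxifene arrays. Both ormeloxifene arrays were higher, at a difference of 0.59 ± 0.21 (SE), or 1.50-fold, with an unadjusted p of 0.0245 and an adjusted p of 1.00. Within the list of peptide clearance and decoy genes, 3 were higher and 4 lower of 7, at a median of -0.07. This median had no stable sign, at 0.077 without ormeloxifene replicate 1 and 0.090 without vehicle replicate 2. Ackr3, which in mice acts as a decoy receptor for adrenomedullin, was at -0.38 ± 0.25, and the mast cell tryptase Tpsab1 was at -0.28 ± 0.22.

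In the remaining lists no gene had an unadjusted p under 0.05. Of the peptide processing genes, 7 were higher and 4 lower of 11 at a median of 0.11, with the secretory granule protein Chga at 0.35 ± 0.20, the prohormone convertase chaperone Scg5 at 0.38 ± 0.30 and the carboxypeptidase Cpd at 0.23 ± 0.21. Receptor desensitisation genes were higher in 7 and lower in 2 of 9 at a median of 0.07. Their examples are Nherf1, a scaffold that binds Ramp3, at 0.48 ± 0.23, and the receptor kinases Grk5 at 0.37 ± 0.22 and Grk3 at 0.19 ± 0.22. Phosphodiesterases that break down cyclic AMP were higher in 7 and lower in 8 of 15 at a median of -0.01, with Pde1c at -0.45 ± 0.27, Pde1a at 0.29 ± 0.27 and Pde2a at 0.20 ± 0.20.

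Other class B receptors, the receptor family of Calcr and Calcrl, were higher in 6 and lower in 4 of 10 at a median of 0.08. The examples are Vipr2 for vasoactive intestinal peptide at -0.32 ± 0.21, the secretin receptor Sctr at 0.48 ± 0.31 and the growth hormone-releasing hormone receptor Ghrhr at 0.21 ± 0.21. Their ligands were higher in 4 and lower in 7 of 11 at a median of -0.04. Gip was at -0.50 ± 0.26, parathyroid hormone Pth at 0.42 ± 0.29 and urocortin Ucn3 at 0.33 ± 0.27. In the lowest 25% of signal lay 5 of the 11 ligands, Pth among them at the 10.7th percentile, and 3 of the 10 receptors. The neighbours of the family itself lay near 0, with the amylin gene Iapp at 0.11 ± 0.21 and Crcp, the CGRP receptor component, at 0.03 ± 0.22. The small list medians turned on single arrays: without ormeloxifene replicate 1 they were -0.033 for peptide processing, -0.049 for Gs and cyclic AMP signalling, -0.051 for class B receptors, 0.077 for phosphodiesterases and 0.059 for class B ligands. For receptor desensitisation the split of 7 higher and 2 lower became 5 and 4 with arrays centred on their medians.

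**Figure D5:**
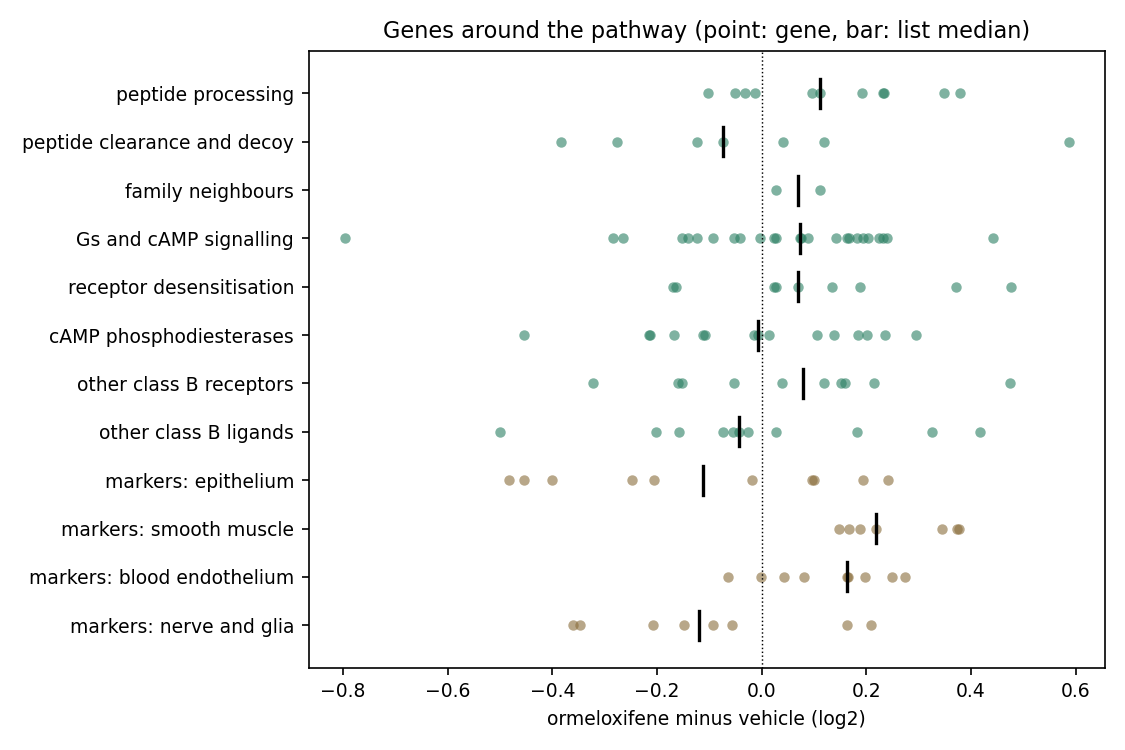
Differences, ormeloxifene minus vehicle on the log2 scale, of the genes in the 8 lists around the family (green) and in 4 marker lists (brown), with a bar at each list's median. Crem at -0.80 and Mme at 0.59 stand farthest from 0, and all 7 smooth muscle markers lie to the right of 0.

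The profile of Calca over the 4 arrays was set against every other gene by the root mean square distance of values centred on each gene's mean. The 3 nearest genes were the translation initiation factor Eif1a (distance 0.0275), the tubulin Tuba8 (0.0283) and the DNA repair endonuclease Apex1 (0.0363). Their differences were -0.53 ± 0.21, -0.50 ± 0.21 and -0.44 ± 0.21. Within the family, Ramp3 was the nearest to Calca at a distance of 0.221, but 2256 other genes were nearer or as near. Calcb, the paralogue of Calca, followed at 0.304, with 7006 other genes at least as near. Adm was the farthest, at 0.607. With 4 arrays such likeness is a description only.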

How the data were processed

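The authors deposited log2 signals of 36685 probe sets on 4 arrays; per the submitters' processing notes they used Affymetrix Expression Console. The sources used here do not give its version, summary method or genome build, and the log2 scale was read from the values (0.92 to 13.59). Per the labels' protocols, 100 ng of Trizol-extracted RNA was labelled with biotin as single-stranded DNA. Column medians ran from 5.67 to 5.93, so values were quantile normalized. By the platform annotation 18511 probe sets carried 1 gene symbol, 575 carried several and 17599 had none. The brightest probe set per gene left 18166 genes, fitted with limma 3.58.1 in R 4.3.3 (lmFit and eBayes, 2-sided, 7.55 degrees of freedom, Benjamini-Hochberg over all genes, threshold 0.05). From each list around the family the 3 genes of smallest p are named, and both measured family neighbours; the 3 genes nearest Calca are named. Genes, lists and tests were chosen with earlier results of these data known. The 13 alternatives cover scaling, the replicate block, probe set choice, a filter on dim genes, the variance prior and leaving out each array. List genes without a probe set of their own were not analysed here.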

Additional observations from a re-analysis of the deposited data

How the results depend on the processing

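With all 13 alternatives, 0 of the 9 genes passed the adjusted threshold, and the smallest adjusted p was 0.570, for Calca with the replicate block on values as deposited. Of 116 alternative values, 112 kept their sign. Calcr has 12, as an alternative omits the lowest 25% by signal, where it falls. The 4 that turned came from leaving out an array: Adm2 was -0.10 without ormeloxifene replicate 2 and -0.13 without vehicle replicate 1, Calcb 0.062 without vehicle replicate 2 and Ramp2 -0.044 without vehicle replicate 1. Leaving out 1 array unbalances the replicate numbers, so the gap between replicates enters these values. Within numbers 1 and 2 the differences were 0.26 and 0.21 for Adm2, -0.09 and -0.25 for Calcb, and 0.18 and -0.02 for Ramp2. Across the omitted arrays the differences ran from -0.61 to -0.38 for Calca, -0.40 to 0.06 for Calcb, 0.15 to 0.87 for Adm, -0.13 to 0.59 for Adm2, 0.17 to 0.36 for Calcr, 0.11 to 0.32 for Calcrl, 0.35 to 0.50 for Ramp1, -0.04 to 0.20 for Ramp2 and -0.35 to -0.13 for Ramp3. An arm left with 1 array is assumed to vary like the other. Calca alone had an unadjusted p under 0.05 in the reported fit, with probe sets averaged, without dim genes and with either other variance prior. No member did on values as deposited, with median centring or all probe sets tested.

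In the labels, the arrays of the 2 groups are linked by replicate number alone. Deviations from the group means correlated at 0.475 between same-numbered arrays across genes. With the replicate block, 3 of the 9 genes had an unadjusted p under 0.05 (Calca 0.0214, Ramp1 0.0355, Adm 0.0361), where 6.76% of all genes did, and 2 on values as deposited; none passed the adjusted threshold. Over all genes, calls numbered 0 in the reported fit, 5 with the block and 84 with the block on values as deposited. They numbered 1 with median centring or probe sets averaged, 4 without the lowest 25% by signal and 3 with a variance trend. Genes at an unadjusted p under 0.05 by limma numbered 399 of 18166, split 203 higher and 196 lower. That count was 142 on values as deposited (57 and 85) and 295 with median centring (112 and 183). With the block it was 1228, and 1163 with the block on values as deposited. With all probe sets tested, it was 888 of 36685 probe sets, not of genes.

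Crem ran from -0.95 to -0.65 (smallest adjusted p 0.0650) and Mme from 0.49 to 0.68 (0.304). Among 297 alternative values of 23 genes around the family 1 turned, Crcp at -0.14 without ormeloxifene replicate 2, in a range up to 0.19 without ormeloxifene replicate 1. Leaving out 1 array, which unbalances the replicate numbers, moved 17 of these 23 by over 1.5 times at least once. Without vehicle replicate 1, Scg5 was 0.043, Pde1a 0.037, Sctr 0.11, Nherf1 0.28, Grk5 0.21, Gip -0.18 and Tpsab1 -0.14. Without vehicle replicate 2, Pth was 0.038, Pde1c -0.13 and Ackr3 -0.17. Without ormeloxifene replicate 1, Kcnj11 was 0.105, Cpd 0.11, Grk3 0.023 and Ghrhr 0.11, and without ormeloxifene replicate 2, Iapp was 0.019 and Ucn3 0.0495. Gnas was 0.11 with probe sets averaged. Of 104 alternative medians of the 8 lists around the family, 16 moved by more than the spread between arrays. The 95% intervals of the 9 genes reach 0.48 to 0.75 to either side.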
